A study of Homo sapiens with 6 samples.

Results

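The TAL1, LMO and E-protein oncogenic complex was examined in RPMI-8402 cells as 9 genes, which are TAL1, TAL2, LYL1, LMO1, LMO2, LDB1, TCF3, TCF12 and STIL. The genes were taken by symbol, and their probes were those whose RefSeq accession maps to one of the symbols, which gave 10 of the 57176 probes on the array and 9 of the 19721 genes that could be named. RPMI-8402 is an established cell line of human T-cell acute lymphoblastic leukaemia (T-ALL). Cells of every group received a lentivirus, were sorted for the EGFP marker of that virus 48 h later and gave 1 array per sample. The control group carried a control shRNA, the group labelled shGATA3 an shRNA against the transcription factor gene GATA3, and the group labelled shTCF1 an shRNA against TCF7, the gene of TCF1. Each of the 3 groups had 2 arrays, which the study describes as independent experiments, and all of them came from 1 line.

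TAL1, TAL2 and LYL1 are closely related class II basic helix-loop-helix (bHLH) proteins. They bind E-box DNA only as dimers with a class I partner, the E-proteins TCF3 and TCF12. LMO1 and LMO2 are LIM-only proteins that bind no DNA themselves and join such a dimer to LDB1, the adaptor through which GATA and RUNX factors and distant enhancers are drawn in. In normal thymocytes E-proteins drive T-cell differentiation, and in T-ALL a chromosome break or deletion switches on a class II bHLH gene or an LMO gene that thymocytes should silence. RPMI-8402 is known for a translocation that places LMO1 beside the T-cell receptor delta locus, and for the deletion that fuses the start of STIL to TAL1, so that TAL1 is read from the STIL promoter there. The members therefore fall into class II bHLH genes, LIM-only genes with their adaptor, E-proteins, and STIL as the gene whose promoter TAL1 borrows.

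The promoters of the members that differed most are printed below, with that of TAL1 for contrast, since the shRNAs were aimed at a GATA factor and a TCF factor. Each window holds the 250 bases before the RefSeq start, on the gene's strand. Capitals mark GATA on either strand in LYL1 and TAL1, the E-box CANNTG in CBFA2T3 (a cofactor of the complex, described with LYL1 below), and the TCF letters CTTTG on either strand in LMO1.
LYL1, chr19:13102859-13103108, minus strand, GRCh38.p14: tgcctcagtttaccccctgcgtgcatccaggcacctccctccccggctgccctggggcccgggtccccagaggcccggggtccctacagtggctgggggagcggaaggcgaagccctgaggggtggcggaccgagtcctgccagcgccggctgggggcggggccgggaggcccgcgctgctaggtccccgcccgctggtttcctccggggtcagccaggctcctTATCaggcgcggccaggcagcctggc
CBFA2T3, chr16:88941351-88941600, minus strand, GRCh38.p14: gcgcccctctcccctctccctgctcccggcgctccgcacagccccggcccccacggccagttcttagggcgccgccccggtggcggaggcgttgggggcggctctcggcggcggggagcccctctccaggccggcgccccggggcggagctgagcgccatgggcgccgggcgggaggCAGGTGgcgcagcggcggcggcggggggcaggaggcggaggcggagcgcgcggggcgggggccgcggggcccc
LMO1, chr11:8268788-8269037, minus strand, GRCh38.p14: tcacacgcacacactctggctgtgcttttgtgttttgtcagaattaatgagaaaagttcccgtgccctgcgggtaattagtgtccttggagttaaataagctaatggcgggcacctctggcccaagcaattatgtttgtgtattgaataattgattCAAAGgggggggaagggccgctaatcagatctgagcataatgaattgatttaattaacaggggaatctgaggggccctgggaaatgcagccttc
TAL1, chr1:47232336-47232585, minus strand, GRCh38.p14: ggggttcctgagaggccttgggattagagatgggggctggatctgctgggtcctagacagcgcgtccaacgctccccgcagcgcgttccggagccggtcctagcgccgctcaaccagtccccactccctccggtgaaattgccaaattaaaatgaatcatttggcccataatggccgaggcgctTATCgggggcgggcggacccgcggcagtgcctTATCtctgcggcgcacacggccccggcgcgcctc
The LYL1 window held 1 GATA match, which began 26 bases before the start, and no E-box or CTTTG match. The TAL1 window held 2 GATA matches, which began 66 and 34 bases before the start, and 1 E-box. A second TAL1 start in the table had none of the 3 motifs. The LMO1 window held 1 CTTTG match and neither of the other motifs, and the CBFA2T3 window held 1 E-box and no GATA match. Among 35116 such windows, 45.6% held GATA, 61.8% held CANNTG and 42.1% held CTTTG, so that a match in 1 window is common. These are reference sequences, and in RPMI-8402 itself the start of TAL1 and the surroundings of LMO1 are rearranged.

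Levels are given as normalized log2 intensities, that is, after variance stabilizing normalization (VSN) of the background-corrected intensities. A difference of 1 is close to a doubling for bright probes. VSN adds an offset, equal to 3.07 to 6.87 intensity units by array, so that for dim probes it is not an exact doubling. Fold values are those of the normalized scale. Levels of different genes were not compared, because probes differ in how well they hybridise. A difference was called when limma gave it a Benjamini-Hochberg adjusted p below 0.05 over 31131 tested probes. Before normalization the 75th percentile of the intensity was between 269.6 and 287.4 on the control arrays and between 165.3 and 178.8 on the other 4 arrays. All 6 arrays lay on 1 slide with 1 scan time, the controls in slide row 2 and both shRNA groups in row 1, so that slide row and shRNA cannot be told apart in a comparison with control. All 7 T-lineage markers checked, from CD2 to PTCRA, were well above background on all 6 arrays.

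The targets of the shRNAs were looked at first. GATA3 stood at 9.54 and 9.56 on the control arrays, at 9.46 and 9.55 on those labelled shGATA3, and at 9.76 and 9.90 on those labelled shTCF1. On its only tested probe, GATA3 was therefore not measurably lower under the shRNA aimed at it, with a difference of -0.05 (95% interval -0.31 to 0.21, adjusted p 0.795 in limma). The study reports a knockdown by its GATA3 shRNA in CD34+ thymocytes, which are other cells. The group is named by its label throughout. TCF7 fell by 1.31 on the log2 scale (SE 0.10, adjusted p 0.00394 in limma) on the arrays labelled shTCF1, and its second probe fell by 1.48.

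Of the 9 members, 8 were well above background on all 6 arrays. LMO2 was the exception. Its probe, printed as 15 spots on each array, was above background on 0 of the 6 arrays, with levels from 2.98 to 3.15, and LMO2 was not tested. LMO1, its paralog and the one activated in this line, was bright on every array. Among the other class II and LIM-only genes on lists set for this description, OLIG2, NHLH1 and LMO3 were also above background on 0 arrays, as was the LDB1 paralog LDB2, while LMO4 was above background on all 6.

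Of the 8 tested members, limma called 2 between the arrays labelled shGATA3 and control, where it called 6.93% of all 14487 genes. LYL1 fell and LMO1 rose. Between shTCF1 and control it called 1 member, LYL1, which rose, against 16.2% of all genes. In the direct comparison of shGATA3 with shTCF1 it called 2 members, against 6.59% of all genes, with LYL1 lower and LMO1 higher in the group labelled shGATA3. The comparisons with control share the control arrays, and their values are given side by side. The median log2 difference of the 8 members was 0.01, 0.08 and 0.09 in the 3 comparisons in that order, beside -0.03, -0.05 and 0.00 for all genes.

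**Figure D1:**
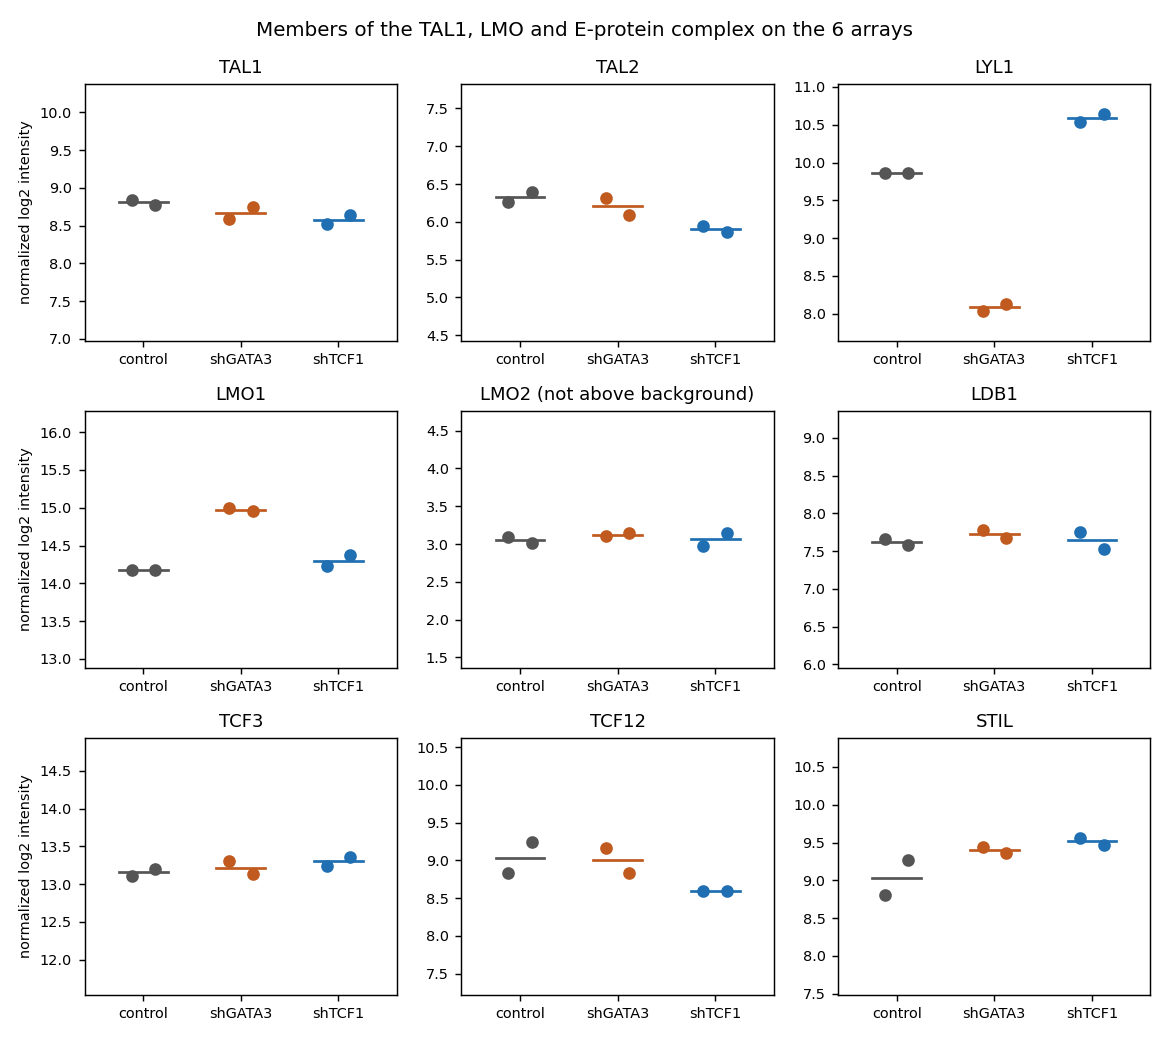
Normalized log2 intensity of the 9 members on the 6 arrays. Each point is 1 array, each short line the mean of 2, and every panel spans the same number of log2 units around the gene's own level. LYL1 splits into 3 separate levels with shGATA3 lowest at a mean of 8.08 and shTCF1 highest at 10.59, LMO1 is raised to a mean of 14.98 on the arrays labelled shGATA3, and the levels of each of the other genes stay within 0.758 of each other over the 6 arrays.

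LYL1, a T-ALL oncogene in its own right that also serves in blood stem cells and early B-cell precursors, moved most. It stood at 9.86 and 9.86 in control, at 8.04 and 8.13 under the label shGATA3, and at 10.54 and 10.65 on those labelled shTCF1. The arrays of the 3 groups did not overlap, the shGATA3 arrays lay lowest and the shTCF1 arrays highest. With 2 arrays a group such a gap is common, since 63% of genes had no overlap between shGATA3 and control, 69.2% none between shTCF1 and control and 53.4% none between shGATA3 and shTCF1. Group means were 9.86 ± 0.0036, 8.08 ± 0.062 and 10.59 ± 0.079 (SD, n = 2).

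Under the label shGATA3 LYL1 was 3.42-fold lower than control, with a log2 difference of -1.77 (SE 0.10, 95% interval -2.02 to -1.53, adjusted p 0.00194 in limma). It was the gene with the 31st largest fall of 14487. Only 0.435% of genes differed as much in either direction. On the arrays labelled shTCF1 LYL1 was 1.66-fold higher than control, with a log2 difference of 0.73 (SE 0.10, 95% interval 0.48 to 0.98, adjusted p 0.0114). A difference of that size is less rare in this comparison, being reached by 7.41% of genes. In the direct comparison LYL1 was 5.68-fold lower under the label shGATA3, with a log2 difference of -2.51 (SE 0.10, adjusted p 0.000539), the 10th largest fall of the comparison.

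The fall of LYL1 was called under 14 of 16 alternatives, and the values ran from -1.82 to -1.54. The rise on the arrays labelled shTCF1 kept a log2 difference of 0.73 without either control array but was not called there, with an adjusted p of 0.0708 without control replicate 1 and 0.0600 without control replicate 2 (range over alternatives 0.000784 to 0.541). The intensity of LYL1 before normalization was 1180 and 1298 on the control arrays and 1319 and 1312 on the arrays labelled shTCF1, which are close to each other, and the control arrays were the brighter ones at their 75th percentile. The arrays labelled shGATA3 gave 222.9 and 244.9. Their 75th percentiles (175.1 and 176.2) also lay below those of control (269.6 and 287.4). A lower value there before scaling therefore does not by itself show a fall, although the gap of LYL1 was wider than that of the 75th percentiles.

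Genes called lower on the arrays labelled shGATA3, higher on those labelled shTCF1 and different between them numbered 31, or 0.214% of all genes. LYL1 was among them. The profile most like that of LYL1 over the 6 arrays, after centring each gene on its own mean, belonged to TAC3, a tachykinin gene, whose largest departure from LYL1 on any array was 0.22. HSPG2, which encodes the matrix proteoglycan perlecan, followed at 0.23 and CBFA2T3 at 0.24.

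CBFA2T3 encodes ETO2, a corepressor that joins the TAL1 and LDB1 complex in blood cells, and it was on the list of LIM cofactors. It stood at 8.84 and 8.85 in control, at 7.06 and 7.01 under the label shGATA3 and at 9.17 and 9.35 on those labelled shTCF1. The order of the group means was that of LYL1. Other genes of the lists had it too, among them TCF4, GFI1B and ERG (below), without a call between shTCF1 and control. CBFA2T3 fell by 1.81 on the log2 scale (SE 0.11, adjusted p 0.00213 in limma) on the arrays labelled shGATA3. Its difference of 0.42 on the arrays labelled shTCF1 (adjusted p 0.0494) was called under only 5 of 16 alternatives, with an adjusted p up to 0.542. Between the shRNA groups it differed by -2.22 (adjusted p 0.00087).

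**Figure D2:**
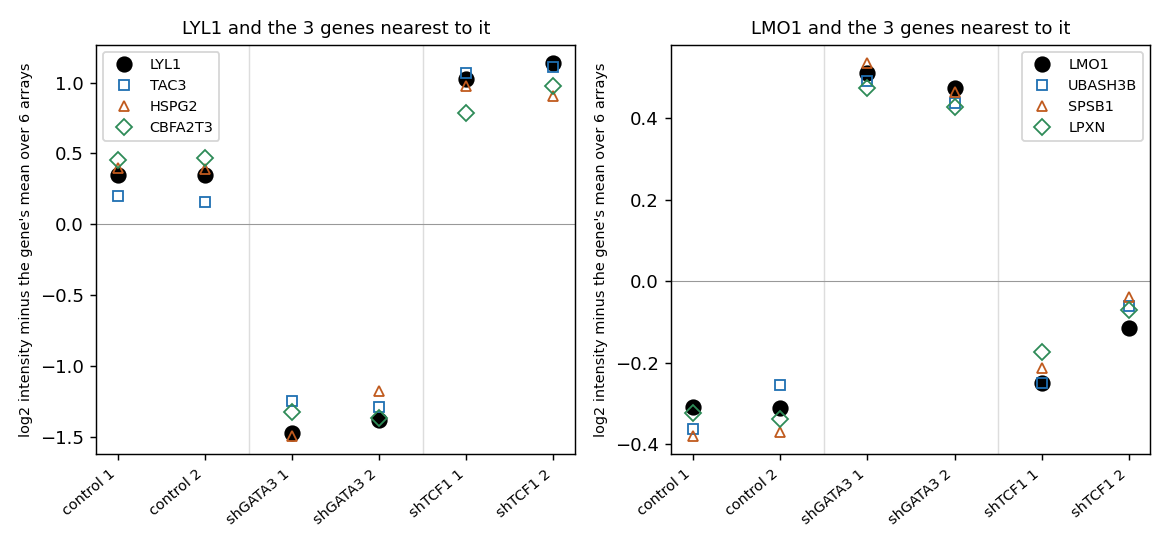
Log2 intensity of LYL1 (left) and LMO1 (right) on each array, minus the gene's mean over the 6 arrays, with the 3 genes whose centred profile lay nearest. Filled circles are the member and open symbols the other genes. The largest departure on any array is 0.24 for the genes near LYL1 and 0.076 for those near LMO1.

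TAL1 itself, the leading class II oncogene of T-ALL, was not called in any comparison. Its levels were 8.84 and 8.78 on the control arrays, 8.58 and 8.75 under the label shGATA3 and 8.52 and 8.64 on those labelled shTCF1. Every value under an shRNA lay below both controls, by a small margin. The differences from control were -0.14 (95% interval -0.41 to 0.13, adjusted p 0.458 in limma) and -0.23 (95% interval -0.50 to 0.04, adjusted p 0.196).

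TAL2, the third class II gene, gave 6.27 and 6.40 in control, 6.32 and 6.09 in the shGATA3 group and 5.94 and 5.86 on those labelled shTCF1. The shTCF1 arrays lay below the other 4. Its difference from control there was -0.43 (SE 0.12, adjusted p 0.0620), which limma did not call, although testing only the probes above background on every array made it a call (adjusted p 0.0432). The difference of -0.13 on the arrays labelled shGATA3 was smaller than the spread of those 2 arrays.

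LMO1 encodes the LIM-only bridge that this line overproduces. It stood at 14.17 and 14.17 on the control arrays, at 14.99 and 14.96 on the arrays labelled shGATA3, and at 14.23 and 14.37 on those labelled shTCF1. The shGATA3 arrays lay above the other 4. LMO1 was 1.74-fold higher there than in control, with a log2 difference of 0.80 (SE 0.10, 95% interval 0.55 to 1.05, adjusted p 0.0135 in limma). It was 1.60-fold higher than on the arrays labelled shTCF1 (log2 difference 0.67, adjusted p 0.0197). Its difference of 0.13 between shTCF1 and control was not called (95% interval -0.12 to 0.38, adjusted p 0.409).

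The intensity of LMO1 before normalization was 23641 and 25877 in control, 28077 and 28240 in the shGATA3 group and 17155 and 17345 on those labelled shTCF1, and 0 spots on any array were saturated. With 1 array of the comparison left out the call was lost, with an adjusted p of 0.0880 or 0.0683 when the first or the second control array was left out and of 0.0532 or 0.0633 when the first or the second shGATA3 array was, while the difference stayed between 0.78 and 0.82. The call between the shRNA groups was also lost on leaving out any 1 of the 6 arrays (adjusted p 0.0517 to 0.0774). Without 1 control array the other is alone in its group and adds nothing to the estimate of spread, so that this fit equals one on the 4 arrays compared. The genes with the profile nearest to LMO1 were UBASH3B, a phosphatase that damps T-cell receptor signalling, SPSB1, an adaptor for ubiquitin ligases, and LPXN, a focal adhesion protein, whose largest departures were 0.056, 0.075 and 0.076.

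LDB1, the adaptor that LMO proteins bind, gave 7.66 and 7.58 in control, 7.78 and 7.67 in the shGATA3 group and 7.75 and 7.53 on those labelled shTCF1. The groups lay on top of each other but for a narrow gap between control and shGATA3. Differences from control were 0.11 (95% interval -0.19 to 0.40) and 0.02 (95% interval -0.27 to 0.32).

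The E-proteins were not called either. TCF3, which encodes E12 and E47, gave 13.11 and 13.20 in control, 13.30 and 13.13 in the shGATA3 group and 13.24 and 13.36 on those labelled shTCF1. Its 3 differences lay between -0.08 and 0.14, and the widest bound of their 95% intervals was 0.42. TCF12, which encodes HEB, gave 8.83 and 9.25 in control, 9.17 and 8.84 in the shGATA3 group and 8.60 and 8.59 on those labelled shTCF1. It was lower on both shTCF1 arrays than on the other 4, but the controls were spread (SD 0.30, n = 2) and the difference of -0.44 (95% interval -0.88 to 0.00, adjusted p 0.143 in limma) was not called.

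STIL, a centriole gene whose promoter drives TAL1 after the deletion, had 2 probes. The brighter gave 8.81 and 9.27 in control, 9.44 and 9.37 in the shGATA3 group and 9.56 and 9.47 on those labelled shTCF1. The controls lay below the other arrays, with a wide spread between them. The differences of 0.37 and 0.48 (adjusted p 0.226 and 0.0999 in limma) were not called, the latter being called under 2 of 17 alternatives. The other probe gave differences of -0.06 and 0.19, so the probes disagreed in sign for shGATA3. Of 8 genes beside TAL1 and STIL on chromosome 1, 5 were tested, and limma called 0 of 5 in each comparison, with 1, 1 and 0 at an unadjusted p under 0.05 for shGATA3, shTCF1 and the direct comparison, a p that 26.5%, 35.0% and 23.4% of all tested probes reached.

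**Figure D3:**
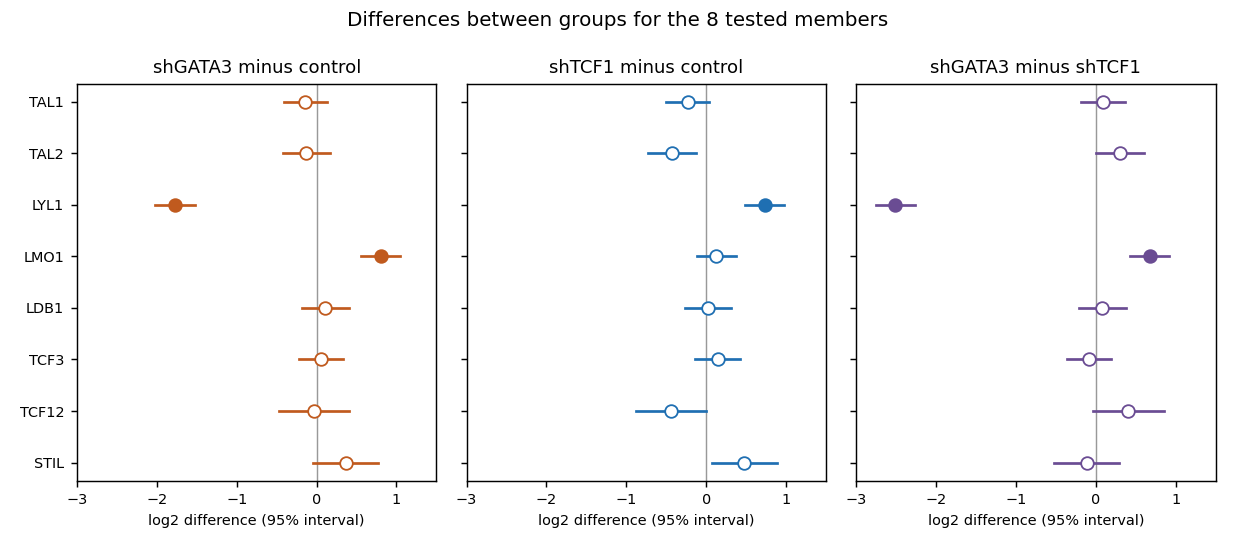
Log2 differences of the 8 tested members in the 3 comparisons, with 95% intervals from limma. Filled circles passed the adjusted p of 0.05 and open circles did not. LYL1 is filled in every panel and LMO1 in the panels that include shGATA3, and the open circles lie between -0.44 and 0.48.

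The rest of the pathway was described from fixed lists. The E-protein list held TCF4, the remaining class I bHLH gene, and the ID genes, whose proteins capture E-proteins and keep them off DNA. Of its 5 genes 4 were tested. On the arrays labelled shGATA3 1 of 4 was called beside 6.93% of all genes, and on those labelled shTCF1 2 of 4 beside 16.2%. TCF4 gave 12.09 and 12.22 in control, 11.34 and 11.37 in the shGATA3 group and 12.30 and 12.33 on those labelled shTCF1. It was lower on the shGATA3 arrays than on the other 4, with a difference from control of -0.80 (SE 0.10, adjusted p 0.0132 in limma). Leaving out any array of this comparison ended the call, with adjusted p 0.0653 and 0.0733 without the first and the second control array, and 0.0524 and 0.0633 without those labelled shGATA3.

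ID1 gave 7.83 and 7.78 in control, 7.71 and 7.72 in the shGATA3 group and 7.0 and 7.03 on those labelled shTCF1. ID3 gave 11.20 and 11.18, then 10.89 and 11.05, then 10.34 and 10.47 in the same order. Both ID1 and ID3 were lowest on the arrays labelled shTCF1. They fell there by 0.79 each on the log2 scale (adjusted p 0.00840 and 0.0117 in limma), and the call for ID1 was lost without control replicate 1 (adjusted p 0.0591). That of ID3 was lost without control replicate 1 (0.0698) or 2 (0.0578) or shTCF1 replicate 1 (0.0514), and the sign of its difference turned to 2.75 in the deposited matrix. ID2 differed by 0.49 there, which was not called (adjusted p 0.150).

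The LIM list held paralogs and cofactors of LMO and LDB1, namely LMO4, the SSBP genes that stabilise LDB1, and the ETO genes. CBFA2T3 was the single gene called among its 6 tested genes, in each of the 3 comparisons. The shares called over all genes were 6.93% for shGATA3, 16.2% for shTCF1 and 6.59% in the direct comparison. LMO4 differed by 0.66 on the arrays labelled shGATA3, which was not called (adjusted p 0.0671 in limma).

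Core partners of the circuit that TAL1 builds in T-ALL, GATA2, GATA3, RUNX1, MYB, ETS1, FLI1 and ERG, were all well above background on 6 arrays. Limma called 0 of 7 in either comparison with control, beside 6.93% of all genes for shGATA3 and 16.2% for shTCF1. In each, 1 of 7 had an unadjusted p under 0.05, which 26.5% and 35% of all tested probes reached. In the direct comparison ERG was lower under the label shGATA3, with a log2 difference of -0.60 (SE 0.11, adjusted p 0.0314) that was called under 5 of 16 alternatives (adjusted p up to 1). GATA1, the erythroid GATA factor, was above background on 1 array.

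Of all genes, limma called 6.93%, 16.2% and 6.59% for shGATA3, shTCF1 and the direct comparison. Among genes that TAL1 drives in T-ALL, 1 of 5 was called in each comparison, ALDH1A2. It encodes a retinaldehyde dehydrogenase that T-ALL cells express through TAL1 and LMO proteins. ALDH1A2 gave 8.16 and 8.13 in control, 7.16 and 7.33 in the shGATA3 group and 5.99 and 6.39 on those labelled shTCF1. The groups did not overlap, and shTCF1 lay lowest. ALDH1A2 fell by 1.96 (SE 0.15, adjusted p 0.00423 in limma) under shTCF1 and by 0.90 (adjusted p 0.0295) under the label shGATA3. The latter call was lost under 8 of 16 alternatives, among them leaving out any of the 4 arrays compared (adjusted p 0.0914 to 0.136). ALDH1A2 went the same way in both groups, whereas LYL1 did not.

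Of 8 genes on the list of E-protein targets 6 were tested. CD4, the coreceptor, rose by 0.89 (SE 0.10, adjusted p 0.00774 in limma) on the arrays labelled shTCF1. RAG1, which cuts antigen receptor genes, was well above background only on the 2 control arrays. RAG1 was at least 1.55-fold lower on the arrays labelled shTCF1 (adjusted p 0.0320, called under 7 of 15 alternatives), where the bound sets the control mean against the dimmest signal above background. It passed the filter on dim probes only through the group where it is high, so that this call is no support for a fall. GFI1B, a repressor of blood lineages, gave 5.77 and 6.52 in the shGATA3 group and 7.34 and 7.23 in control. The call of GFI1B (difference -1.14, adjusted p 0.0481) held under 4 of 16 alternatives, ended without shGATA3 replicate 1 (0.0524), either control array (0.189 and 0.126) and in the fit on the 4 arrays compared (0.0827), and the difference shrank to -0.07 in the deposited matrix.

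Of 10 other T-ALL oncogenes, TLX1 and TLX3 were above background on 0 arrays and 6 genes were tested. On the arrays labelled shTCF1 limma called 5 of 6, where it called 16.2% of all genes. MEF2C, which was dim in control, is counted among them. On the arrays labelled shGATA3 it called 2 of 6, where it called 6.93% of all genes. HHEX, a homeobox gene of blood progenitors, gave 10.19 and 10.23 in control, 8.43 and 8.38 in the shGATA3 group and 9.72 and 9.69 on those labelled shTCF1. HHEX fell by 1.80 (SE 0.10, adjusted p 0.00169 in limma) under the label shGATA3 and by 0.50 (adjusted p 0.0231) under shTCF1, where leaving out either control array (0.116 and 0.121) or either shTCF1 array (0.0756 and 0.0781) ended the call. It is a deep fall of the size seen for LYL1, but without the opposite shift under shTCF1.

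HOXA9 and HOXA10, homeobox genes of stem cells, rose by 0.87 and 0.85 (adjusted p 0.0107 and 0.0119 in limma) on the arrays labelled shTCF1. Both calls were lost without control replicate 2 (0.0555 and 0.0591), and that of HOXA10 also without shTCF1 replicate 1 (0.0524). MEF2C, a myeloid and B-cell factor, was not above background in control and measured 2.11-fold higher under shTCF1 (adjusted p 0.0342 in limma, called under 5 of 15 alternatives). It passed the filter on dim probes only through groups where it is high, so that this call is no support for a rise. SPI1, the gene of PU.1, was left out by the rule for named genes and was added after its values were seen. It fell by 0.65 and 0.67 under the labels shGATA3 and shTCF1 (adjusted p 0.0425 and 0.0246 in limma). These calls held under only 5 and 9 of 16 alternatives, and the sign turned to 0.55 and 0.57 in the deposited matrix.

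**Figure D4:**
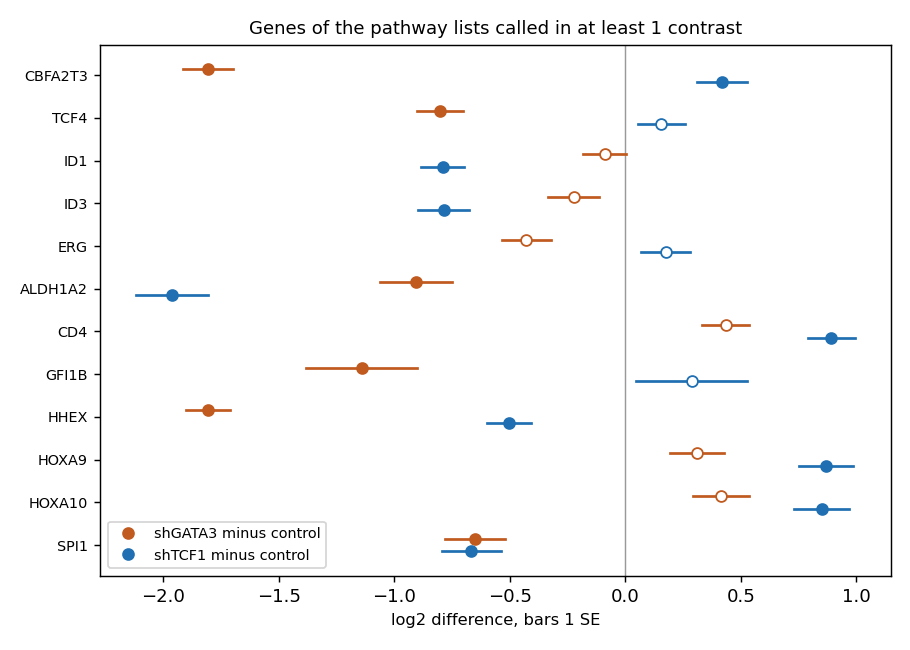
Log2 differences from control of 12 genes of the pathway lists that limma called in at least 1 comparison, with bars of 1 SE. Filled circles passed the adjusted p of 0.05 and open circles did not, and ERG was called only between the shRNA groups. RAG1 and MEF2C are left out because at least 1 group was dim. CBFA2T3 lies on opposite sides of 0 for the shRNAs, at -1.81 and 0.42. TCF4, GFI1B and ERG do so too, with differences for shTCF1 that were not called. ALDH1A2, HHEX, SPI1, ID1 and ID3 lie below 0 for both, and CD4, HOXA9 and HOXA10 above 0 for both.

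Markers of other blood cells were checked beside these results. CD22, a B-lineage marker, was above background on 0 arrays. None of the tested myeloid markers (2 of 4) or erythroid and megakaryocyte markers (5 of 6) was called by limma in any comparison. Of all genes it called 6.93%, 16.2% and 6.59% for shGATA3, shTCF1 and the direct comparison. For shTCF1 against control 0 and 3 of these markers had an unadjusted p under 0.05, which 35% of all tested probes reached. HBB and CSF1R were above background on 0 arrays. CD2, a T-lineage surface protein, fell by 2.19 on the arrays labelled shTCF1 (adjusted p 0.00200 in limma, called under 14 of 16 alternatives) and by 0.47 on those labelled shGATA3 (adjusted p 0.0439, called under 4 of 16). In the deposited matrix the sign of both differences of CD2 turned, to 0.85 and 2.69. CD3G rose by 0.63 under shTCF1 (adjusted p 0.0370), a call made under 7 of 16 alternatives. In bulk RNA, fewer cells of a type and less RNA per cell cannot be told apart.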

How the data were processed

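RNA of 6 samples was labelled from 100 ng with Cy3 and hybridised to custom 1-colour Agilent arrays designed on hg19, per the file headers. Agilent Feature Extraction 10.7.1.1 made the deposited intensity values (the submitters' notes name another version), with background subtracted and detrended but no scaling between arrays. A matrix of log2 values was also deposited by the authors, which their methods call VSN-normalized. Across probes its column of control replicate 2 correlated with its own scanner array by 0.758 and the others by 0.986 to 0.998, and those of control replicate 1 and both shGATA3 replicates followed the other replicate's array more closely, so the matrix served only as an alternative. Sample columns left unused numbered 0.

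Control spots and 71 probes flagged as outliers were left out, and spots of 1 probe were averaged. The VSN model was rewritten in R 4.3.3, since its package was not installed, and applied to the intensities (trimming quantile 0.9, 7 iterations, 5 strata) and tested on simulated data. Probes were named through their RefSeq accession and a RefSeq table of GRCh38.p14 (25728 of 57176 probes, and 10 for the members). Probes entered the test when both arrays of any group were well above background (31131 probes, 14487 genes), and a gene was represented by its brightest tested probe. Limma 3.58.1 (lmFit and eBayes, two-sided) was fitted to all 6 arrays without covariates, following the tools named in the study's methods. Benjamini-Hochberg adjustment ran over all tested probes. The fit had 3 residual degrees of freedom, and 2 arrays against 2 cannot give an exact permutation p below 0.333, so that calls rest on the spread limma pools over probes. The number of arrays limits the precision.

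Promoter windows were taken from RefSeq for 8 of the 9 members and CBFA2T3. Genes named were all members, genes called on each pathway list (at most 4 a list, by size), the targets of the shRNAs and the 3 nearest profiles of each called member. The members, lists and rules were chosen with earlier results of these data known. Alternatives covered scaling, background correction, the deposited matrix, the filter on dim probes, the variance prior, the arrays in the fit, the replicate number as a block, and leaving out each array, for which values normalized over all 6 arrays were kept. The alternative that used the deposited matrix without its column of control replicate 2 was chosen after seeing the data. Replicate numbers were not taken to pair the samples, since deviations of same-numbered arrays correlated by -0.04, -0.01 and 0.05. Some marker results are not reported here.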

Additional observations from a re-analysis of the deposited data

How the results depend on the processing

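Over 16 alternatives (17 for STIL) the differences of LYL1 and LMO1 kept their direction. The fall of LYL1 on the arrays labelled shGATA3 lost its call with the deposited matrix, with or without its column of control replicate 2 (-1.79 in each, adjusted p 0.568 and 0.0686), and with no other alternative.

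Called probes numbered 2130 for shGATA3 against control, 5274 for shTCF1 against control and 1925 in the direct comparison, and called members 2, 1 and 2. Without a filter on dim probes the probes numbered 560, 2268 and 901. With normexp on the median signal they were 4291 and 3284 in the first and the last comparison, and with an intensity trend 3914 and 3273. With the deposited matrix limma called 0 probes and 0 members in each comparison, with 1814, 2653 and 1642 probes and 2, 2 and 1 members at an unadjusted p under 0.05. Without its column of control replicate 2 it called 0, 0 and 553 probes and 0, 0 and 1 members, with 4567, 6518 and 6615 probes and 2, 2 and 3 members at an unadjusted p under 0.05. The direct comparison fitted with only its 4 arrays gave 1214 probes and 1 member. Members called for shTCF1 against control were 2 with normexp and with an intensity trend, where STIL was added, and 2 with testing kept to the probes above background on every array, where TAL2 was added.

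Leaving out 1 array leaves the other of its group alone, which adds nothing to the estimate of spread and is assumed to vary like the other groups. Where the array left out belongs to the group not compared, the fit equals the one on the 4 arrays compared, which gave 1454, 4923 and 1214 probes in the 3 comparisons. Leaving out 1 array at a time, these fits included, gave 437 to 1454 probes for shGATA3 against control, 865 to 4923 for shTCF1 against control and 701 to 1214 in the direct comparison, with 1 to 2, 0 to 1 and 1 members (with the deposited matrix counted in, from 0, 0 and 553 probes and 0, 0 and 1 members). With the replicate block limma called 1328 probes for shGATA3 against control, 3850 for shTCF1 and 1285 in the direct comparison, and the block changed no call of a member.

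Members that were not called changed sign under some alternatives. For shGATA3 against control TCF12 (-0.03) gave 0.016 with 75th percentile scaling, 0.0061 with quantile normalization, 0.0886 with normexp, and -0.24 to 0.18 on leaving out 1 array, with 0.18 without control replicate 2 and 0.13 without shGATA3 replicate 2, TCF3 (0.06) gave -0.0279 to 0.15 on leaving out 1 array (-0.0279 without shGATA3 replicate 1) and -0.15 with the deposited matrix without control replicate 2, and STIL (0.37) gave -0.11 with the deposited matrix. For shTCF1 against control LDB1 (0.02) gave -0.02 without control replicate 2, -0.0873 without shTCF1 replicate 1 and -0.12 with the deposited matrix without control replicate 2, and TCF3 (0.14) gave -0.0042 with the last. In the direct comparison TCF3 (-0.08) gave -0.17 to 0.002 on leaving out 1 array (0.002 without shGATA3 replicate 2) and LDB1 (0.08) gave -0.0268 to 0.19 (-0.0268 without shTCF1 replicate 2). The cause was not tested.

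With 2 arrays a group, the 95% intervals of the differences of TAL1, LDB1 and TCF3 held 0 in every comparison, which does not show that these genes were unchanged. LMO2 was not above background on any array, and no difference was tested for it.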
